A study of Mus musculus with 9 samples.

Results

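Accessible chromatin of sorted mouse peritoneal macrophages was mapped with ATAC-seq, which cuts and tags open DNA with the Tn5 transposase. The regions described here were called in the converted and the resident peak list and held no peak of the monocyte-derived list, and they are called tissue-shared regions below. They were found by merging all peaks of the 3 deposited lists that overlapped by 1 bp or more. Of 36843 merged regions, 715 met this rule, which is 1.94% of all regions. The count depends on the lists: with all lists cut to equal length 2013 regions qualified, 434 of the 715 among them, and with p at most 1e-10 in every list 160 did, 13 of the 715 among them. They were chosen by the peak calls themselves, so their presence in 2 lists and absence from the third is a description and no finding.

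The study holds 3 groups of 3 samples each, all from mice of the genotype Cx3cr1CreERT2-IRES-EYFP/+ Rosa26-stopfl-tdTomato/+. Tissue-converted cells came from animals that received 2 ml of thioglycollate, an irritant that recruits monocytes, and ate a tamoxifen diet for 8 weeks. The labels give tissue-resident cells no treatment of their own. Monocyte-derived cells were harvested on day 4 after 2 ml of thioglycollate. All 3 groups had been given complexes of 5 µg IL-4 with 25 µg of an antibody to it, every other day over the last 4 days. The Cre recombinase is active only in cells that use the Cx3cr1 gene and only after tamoxifen. The sources used here do not give the age of the animals, and treatment and cell origin cannot be told apart in this design.

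Each group has 1 merged list, of 15552 converted, 24348 resident and 33694 monocyte-derived peaks. Values therefore carry no spread between replicates, groups were not tested against each other, and the depth is unknown. Intervals below are 95% Wilson intervals for shares and Newcombe intervals for differences, and they cover counting error over regions only. A region missing from the monocyte-derived list may be closed there or below detection. The pan-macrophage genes Csf1r, Spi1, Cd68 and Itgam together had 3 converted, 6 resident and 11 monocyte-derived regions in the gene or within 10 kb. Of 19 defining genes of B, T and NK, mast, mesothelial or stromal cells, eosinophils and neutrophils, 13 had no region in any list, and none had a tissue-shared region. The other 6 held 5 converted, 7 resident and 11 monocyte-derived regions, Csf3r and Siglecf among them. In longer lists of the same cell types, 10 of 15 B cell and 8 of 13 neutrophil genes had a region of any class. So did 7 of 18 T and NK cell, 1 of 10 mast cell, 3 of 15 mesothelial and stromal and 3 of 8 eosinophil genes. Cr2 and S100a8 of those lists held a tissue-shared region, described below.

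Open chromatin marks promoters, where transcription starts, and distal elements such as enhancers, which tend to be more particular to a cell type than promoters are. Resident macrophages of the peritoneal cavity are known for dependence on the transcription factor GATA6, whose expression there is induced by retinoic acid. Monocytes that enter the cavity can take on parts of this programme with time, and IL-4 drives macrophages of either origin into alternative activation.

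The regions that lie on annotated starts can be shown as sequence. The promoters below were chosen because a tissue-shared region covers bases just before the start and for their place in the results: regions among the 20 strongest (Plxna2, Fmn1, Cadm2, Rorb) or just after them (Irs1 in place 23 and Stard13 in place 25) and genes of the lists described later (Ass1, Cr2, S100a8). Ltc4s and Stard13 were chosen after their values had been seen. Each line gives the covered bases before the transcript start, 5′ to 3′ on the strand of the gene, from RefSeq for GRCm38.p6. Capitals mark matches to any of 12 short motifs searched on both strands, and a sequence without capitals holds none of them.
Plxna2, chr1:194619664-194619828, strand +: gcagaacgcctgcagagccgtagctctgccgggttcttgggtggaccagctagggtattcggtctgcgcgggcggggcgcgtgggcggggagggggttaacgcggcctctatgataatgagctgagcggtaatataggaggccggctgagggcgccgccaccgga
Irs1, chr1:82291489-82291689, strand -: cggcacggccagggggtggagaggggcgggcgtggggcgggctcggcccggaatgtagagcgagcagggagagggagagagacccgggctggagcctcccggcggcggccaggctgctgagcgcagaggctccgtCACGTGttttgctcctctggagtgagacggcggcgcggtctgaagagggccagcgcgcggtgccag
Fmn1, chr2:113327514-113327735, strand +: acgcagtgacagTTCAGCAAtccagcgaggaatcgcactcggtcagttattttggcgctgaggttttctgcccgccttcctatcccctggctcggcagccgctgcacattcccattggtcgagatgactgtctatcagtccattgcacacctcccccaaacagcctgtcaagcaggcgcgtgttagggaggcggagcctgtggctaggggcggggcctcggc
Cadm2, chr16:67620909-67621038, strand -: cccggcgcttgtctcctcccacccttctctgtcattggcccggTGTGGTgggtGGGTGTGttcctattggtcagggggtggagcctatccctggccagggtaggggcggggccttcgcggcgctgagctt
Rorb, chr19:19111197-19111388, strand -: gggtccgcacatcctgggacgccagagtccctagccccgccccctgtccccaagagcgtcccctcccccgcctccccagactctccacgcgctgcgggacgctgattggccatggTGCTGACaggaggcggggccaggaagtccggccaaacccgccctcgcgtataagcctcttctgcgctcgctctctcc
Stard13, chr5:151190194-151190363, strand -: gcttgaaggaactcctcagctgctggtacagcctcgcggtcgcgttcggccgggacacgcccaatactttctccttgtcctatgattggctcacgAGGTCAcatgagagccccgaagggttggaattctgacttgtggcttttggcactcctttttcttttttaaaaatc
Ass1, chr2:31470039-31470213, strand +: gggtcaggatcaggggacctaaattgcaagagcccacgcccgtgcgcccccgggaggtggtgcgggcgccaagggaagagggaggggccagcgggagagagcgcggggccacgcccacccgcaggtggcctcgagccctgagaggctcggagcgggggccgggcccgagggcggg
Cr2, chr1:195176720-195176863, strand -: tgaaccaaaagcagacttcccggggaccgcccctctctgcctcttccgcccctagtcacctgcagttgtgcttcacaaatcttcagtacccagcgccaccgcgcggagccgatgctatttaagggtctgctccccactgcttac
S100a8, chr3:90668914-90669013, strand +: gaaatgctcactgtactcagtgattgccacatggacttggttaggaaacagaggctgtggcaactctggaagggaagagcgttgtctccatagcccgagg
Ltc4s, chr11:50238533-50238613, strand -: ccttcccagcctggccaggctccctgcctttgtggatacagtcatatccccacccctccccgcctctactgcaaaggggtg
The capitals are an E-box (CACGTG) in Irs1, a C/EBP match (TTNNGCAA) in Fmn1, RUNX (TGTGGT) and KLF (GGGTGTG) matches in Cadm2, a MAF match (TGCTGAC) in Rorb and a retinoid receptor match (AGGTCA) in Stard13. The stretches ranged in composition. The Ass1 stretch was 76.0% G and C with 17 CpG dinucleotides over 175 bases, while the S100a8 stretch was 52.0% G and C with 2 CpG over 100 bases.

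Tissue-shared regions were mostly distal. Of the 715, 166 had a protein-coding gene end within 1 kb (23.2%, 20.3 to 26.4%), and 444 (62.1%) lay inside a gene. Inside genes or outside, 191 of the 715 (26.7%, 23.6 to 30.1%) were more than 50 kb from any gene end, and 97 of those lay outside genes altogether. This far-distal share was higher than in every other class. It exceeded that of regions called in all 3 lists (9.61%) by 17.1 percentage points (13.9 to 20.5) and that of monocyte-derived-only regions (19.04%) by 7.68 points (4.50 to 11.1). Against resident-only regions (23.2%) the difference was 3.47 points, with an interval that comes close to 0 (0.0855 to 7.06).

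The nearest comparison is with regions that one tissue list shares with the monocyte-derived list alone. The tissue-shared share near gene ends lay 15.7 points below (19.6 to 11.5 below) the 38.9% of 1312 converted and monocyte-derived regions. From the 42.1% of 5289 resident and monocyte-derived regions it differed by -18.9 points (-22.1 to -15.4). The share near gene ends did not differ detectably from that of converted-only regions (difference -1.69 points, -6.43 to 2.98) or resident-only regions (-2.15 points, -5.40 to 1.34). The same held for monocyte-derived-only regions, at 24.4% (-1.16 points, -4.19 to 2.15), so a low share is not particular to tissue-shared regions. In all, 46 such differences were computed over all measures, without adjustment. Within the 715 the share near gene ends was 24.0% for regions in the stronger 50% of both lists and 23.1% for the others. With p at most 1e-10 in every list, which both demands stronger tissue peaks and lets in regions with a weak monocyte-derived peak, it was 49.4% of 160 regions, 13 of them among the 715.

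**Figure D1:**
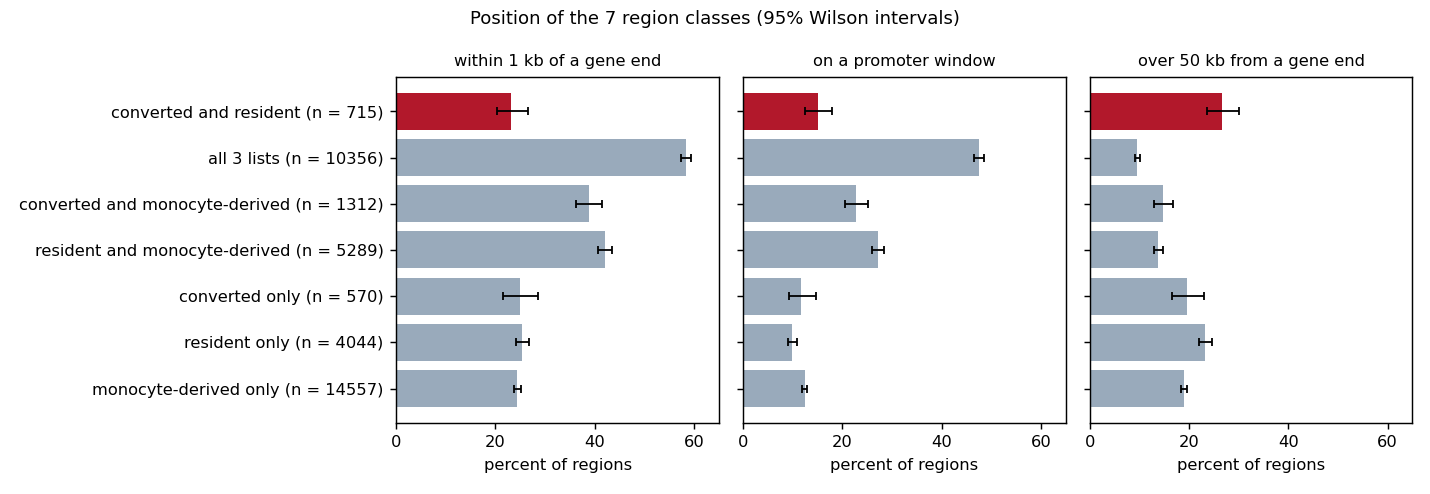
Share of regions (percent, horizontal axis) within 1 kb of a gene end, on a promoter window and over 50 kb from a gene end, for the 7 classes of merged regions. Tissue-shared regions (converted and resident) are in red at the top, error bars are 95% Wilson intervals, and the middle panel leaves out chromosome 18: their 26.7% in the right panel is the highest of the 7 classes, while 58.3% of regions of all 3 lists lie within 1 kb of a gene end.

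Promoter use gave a finer view, since it reads the annotated transcript start and its strand. A promoter window runs from 250 bases before to 50 bases after a RefSeq transcript start. Chromosome 18 has no entry in the promoter table used here, which left 691 tissue-shared regions, and 104 of them (15.1%, 12.6 to 17.9%) covered a window. The share was 5.08 points above that of resident-only regions (9.97%; interval 2.42 to 8.07) and 7.68 points below that of converted and monocyte-derived regions (22.7%; 11.1 to 4.06 points below). For converted-only regions, at 11.7%, the difference of 3.38 points had an interval that includes 0 (-0.490 to 7.14). Width was not adjusted for, and its median was 150 bp in tissue-shared and 75 bp in resident-only and in converted-only regions. Within 1 kb of a transcript start lay 24.3% of tissue-shared and 25.5% of resident-only regions. That difference of -1.16 points (-4.52 to 2.43) shows no excess over resident-only regions.

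The covered windows numbered 121, or 0.371% of the 32619 in the table, and belonged to 115 genes, 91 of them protein-coding. In 111 of the 121 windows no monocyte-derived region touched any base. The rule keeps the covering regions free of monocyte-derived peaks, so this count is largely fixed by it and is a description. Exceptions include Nt5e, which encodes the ecto-enzyme CD73, and Afdn, which encodes the junction protein afadin. CpG dinucleotides were frequent in these windows, with a median of 19 in 300 bases. Windows covered by regions of all 3 lists had a median of 24, and all promoters 7. At least 15 CpG were found in 66.9% of the tissue-shared windows (58.2 to 74.7%), in 83.9% of the windows of all 3 lists and in 34.9% of all promoters.

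The further promoters named here were chosen after their values had been seen. Alox5 encodes 5-lipoxygenase and Ltc4s leukotriene C4 synthase, successive parts of the leukotriene pathway. The region at the Alox5 start (chr6:116461039-116461213) had p-values of 9.72e-06 in the converted and 3.39e-06 in the resident list, and the nearest monocyte-derived peak was 4.97 kb away. At Ltc4s (chr11:50238489-50238613) the values were 3.77e-07 in the converted and 1.18e-05 in the resident list, and a region inside that gene was called in all 3 lists. The starts of Vav3, a guanine nucleotide exchange factor gene, Prkcq, which encodes protein kinase C theta, and Il21r, the IL-21 receptor gene, were also covered. So were those of the ephrin receptor genes Epha3 and Epha5, the endothelin receptor gene Ednrb, the Wnt pathway gene Axin2 and the phospholipid transporter gene Abcb4.

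None of the 12 motifs set the tissue-shared promoter windows clearly apart. The GATA letters AGATAA were found in 8 of 121 windows (6.61%, 3.39 to 12.5%), in 3.63% of windows covered by regions of all 3 lists and in 11.2% of all promoters. The PU.1 letters GGAAGTG or GAGGAAG were in 24 (19.8%), against 26.5% and 21.7%, and the AP-1 letters TGANTCA in 4 (3.31%), against 3.82% and 7.84%. The retinoid receptor letters AGGTCA was in 17 (14.0%), against 10.4% and 16.2%. Of 24 differences 1 had an interval without 0. That was RUNX (TGTGGT), in 9.92% of tissue-shared windows and 16.6% of all promoters, a difference of -6.72 points (-10.9 to -0.0855). Windows covered by regions of all 3 lists held it in 10.9%, a difference of -0.967 points with an interval that includes 0 (-5.20 to 5.70). The low share is thus not particular to tissue-shared windows. The remaining searches were for C/EBP (TTGCNNAA or TTNNGCAA), MEF2 (TATTTTTA), MAF (TGCTGAC), KLF (GGGTGTG), the spaced IRF and STAT6 motifs and the E-box CACGTG. The letters of different motifs may overlap in a window. These are counts of letters in promoter windows, and distal regions, the larger part, were not searched.

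In strength, as ranked by the p-value each list gives its own peaks, the tissue-shared regions spread over both lists. These p-values are the authors', and peaks were ranked by them within a list, with ties going to the wider peak. The median rank was at 61.8% of the converted list and 52.6% of the resident list, counted from the strongest peak. The stronger 50% of the converted list held 259 regions (36.2%), and that of the resident list 328 (45.9%). In the stronger 50% of both lists were 125 regions and in the weaker 50% of both 253. The floor of 1e-12 was reached by 29 in the converted list, 37 in the resident list and 13 in both. The weakest converted call stood at 9.72e-06. Of the resident calls, 195 (27.3%) had a p-value above 1e-05, the value in the names of the lists, up to 1.50e-05. In the whole resident list p-values pass 1e-05 between ranks 77.4% and 77.6%, so such calls are not particular to tissue-shared regions.

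**Figure D2:**
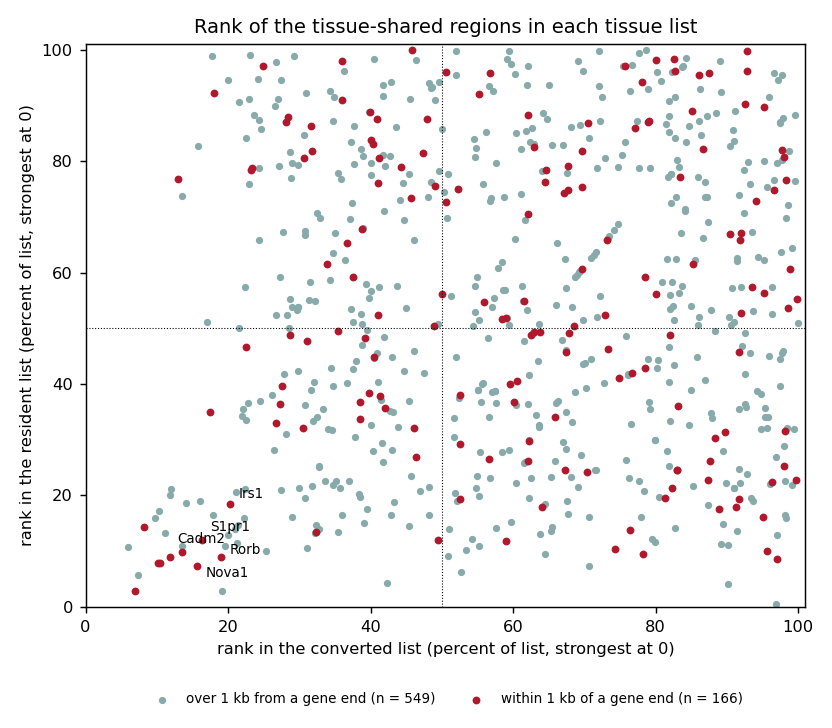
Rank of each of the 715 tissue-shared regions in the converted list (horizontal axis) and in the resident list (vertical axis), as percent of the list with the strongest peaks at 0; red points lie within 1 kb of a gene end and dotted lines mark the middle of each list. Points spread over most of the square, with 125 regions at the lower left and 253 at the upper right of the dotted lines, and the named genes mark strong regions near the origin.

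The peaks of both lists covered similar but not identical stretches. In 551 regions 1 converted peak met 1 resident peak. The median region was 150 bp wide, with 125 bp under converted and 125 bp under resident peaks. Both lists covered the same bases for a median of 62.5% of the region, and in 71 regions the extents were identical. In 35 they met over 25 bp or less, 1 step of the grid on which peak edges lie. Converted and monocyte-derived regions had a median of 54.5% in common, and resident and monocyte-derived regions 57.1%. The converted stretch was the wider in 190 regions and the resident stretch in 371.

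The 20 regions with the smallest worse rank lay at genes with varied functions. Of these, 13 lay inside a gene and 9 within 1 kb of a gene end. At the floor in both lists were regions at the starts of Fmn1, which encodes the actin nucleator formin 1 (chr2:113327514-113327788), Plxna2, a semaphorin receptor gene (chr1:194619664-194619913), Cadm2, an adhesion molecule gene of neurons (chr16:67620789-67621038), and Rorb, an orphan nuclear receptor gene (chr19:19111139-19111388). Others at the floor in both lists overlapped an end of Cth, the gene of cystathionine gamma-lyase (chr3:157924989-157925263), of Nova1, a neuronal splicing factor gene (chr12:46819389-46819713), and of S1pr1, a sphingosine-1-phosphate receptor gene that guides leukocyte egress. A further region lay deep in the kinesin gene Kif26b, 149 kb from its nearest end.

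Beyond genes, a pair of 400 bp regions 35.5 kb apart lay at Clca4b, a gene of the calcium-activated chloride channel regulator family. The first (chr3:144933014-144933413) was 0.485 kb from the gene end and the second 13.4 kb from it, and both were at the floor in both lists. The nearest monocyte-derived peaks were 171.7 kb and 176.5 kb away. A region 165 kb from Efnb2, the ephrin-B2 gene, was also at the floor in both. The rest of the 20 lay nearest to Ppp1r14bl, Gm4841, the transcription factor gene Ebf2, the netrin receptor gene Unc5c, the lipid hydrolase gene Abhd12, the tyrosine kinase gene Fer, Dtwd2, Col19a1 and Sfi1. The last pair lay in crowded stretches described below.

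Most tissue-shared regions lay over 10 kb from any monocyte-derived peak. The median distance was 20.4 kb, with quartiles of 2.81 and 64.5 kb, and 438 regions (61.3%, 57.6 to 64.8%) were over 10 kb away. Without the regions less than 1 kb from a monocyte-derived peak the median was 32.2 kb. With p at most 1e-10 in every list 160 regions qualified, with a median of 76.6 kb. That distance is to monocyte-derived peaks passing the same cut, and weaker ones may lie nearer. The share over 10 kb away was 45.3% in converted-only and 52.7% in resident-only regions, which the rule also keeps free of monocyte-derived peaks. The tissue-shared share was higher by 16.0 points (10.5 to 21.3) and 8.51 points (4.58 to 12.3). The rule uses the same monocyte-derived list, so these distances are a description. Over 100 kb away were 132 regions (18.5%), against 7.02% of converted-only and 16.1% of resident-only regions, and the second of these differences had an interval that includes 0 (-0.602 to 5.52). Among regions in the stronger 50% of both lists 69.6% were over 10 kb away, and among the others 59.5%.

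Near misses were a minority. Monocyte-derived peaks abutted 10 regions without overlap, lay within 25 bp of 24, within 200 bp of 69 (9.65%) and within 1 kb of 127 (17.8%). The abutted regions include the ones at the starts of Nt5e and of Gpkow. On the other side of the rule, 6 of the 10356 regions of all 3 lists had 25 bp or less under both a monocyte-derived and a tissue peak.

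**Figure D3:**
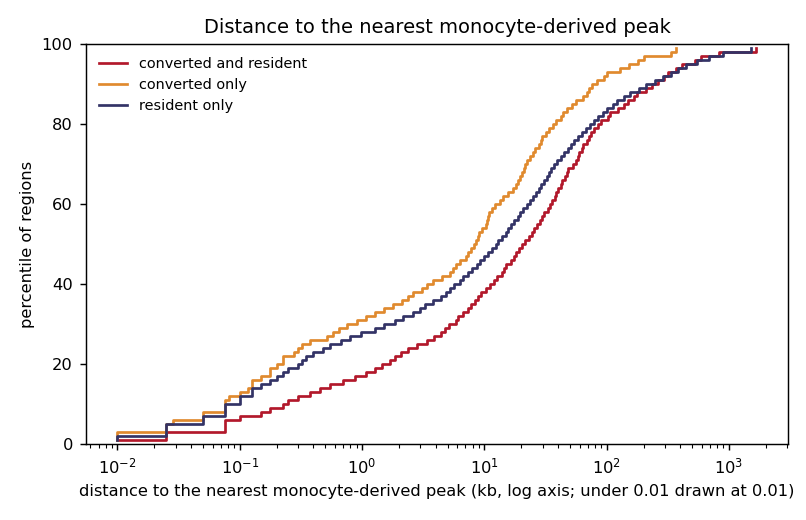
Percentile of regions (vertical axis) against the distance to the nearest monocyte-derived peak in kb (horizontal log axis, with distances under 0.01 kb drawn at 0.01) for tissue-shared (converted and resident), converted-only and resident-only regions. The tissue-shared curve lies to the right through the middle of the plot, with medians of 20.4 kb, 8.24 kb and 12.4 kb, and meets the resident-only curve at the largest distances.

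At the far end, 13 regions had no monocyte-derived peak within 1 Mb, up to 3.27 Mb. Besides Cadm2 (1805 kb) and Nova1 (1727 kb), they covered the starts of Pcdh10, a protocadherin gene (2702 kb), Elavl2, a neuronal RNA-binding protein gene (1888 kb), Epha5 (1355 kb) and the imprinted gene Peg12 (1358 kb). A pair lay 0.05 kb apart at the zinc finger gene Zik1 (1927 kb). The others were nearest to Ctnna2, Slitrk5, Lor, Gm42163 and Asxl3. These were chosen for distance after their values had been seen.

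Tissue-shared regions seldom neighboured each other. Another lay within 10 kb of 69 of them, or 9.65% (7.70 to 12.0%), against 20.3% of resident-only and 38.6% of regions of all 3 lists, which are more numerous. For converted-only regions, closest in number, it was 9.47%. Stretches free of monocyte-derived peaks held 2 or more tissue-shared regions in 66 cases, 143 regions in all, with at most 4 in a stretch. By chromosome, chromosome 1 held 74 (10.3%), against 7.48% of all other regions, a difference of 2.86 points (0.822 to 5.33), and chromosome X held 7 (0.979%), against 1.97% (difference -0.992 points, -1.52 to 0.0454). Over 20 chromosomes, intervals without 0 were found for chromosomes 1 and 16 (higher) and 10 (lower), with no adjustment.

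A few lay in stretches crowded with peaks. With 8 or more regions of any class within 5 kb stood 13 tissue-shared regions, 8 of them across Sfi1, a centrosome gene whose window held 81 converted, 140 resident and 105 monocyte-derived regions. Another 4 lay on chromosome 1 between 24612264 and 24614838, a stretch known for a copy of mitochondrial DNA in the reference genome, and 1 on chromosome 17. The sources used here do not say how mitochondrial and multiply mapping reads were handled, and their part in these calls was not tested. Without these 13 there were 702 regions, with 23.5% near a gene end and a median distance of 21.3 kb to a monocyte-derived peak.

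Counted by gene, 553 of 21631 protein-coding genes (2.56%) had a tissue-shared region in the gene or within 10 kb, or 4.03% of the 13730 genes with a region of any class. A single one was found at 509 genes and 2 or more at 44. Genes with one had a median length of 62.6 kb, against 17.3 kb for all genes and 23.8 kb for genes with a region of any class. Long genes have more room for a region, and 187 regions had no gene within 10 kb. In 129 of the 553 genes (23.3%, 19.99 to 27.0%) no monocyte-derived region lay in the window. Among genes with a converted-only or resident-only region and no tissue-shared one the share was 19.3% (17.9 to 20.7%), a difference of 4.06 points (0.427 to 8.00). The rule uses the monocyte-derived list too, so this is a description.

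After Sfi1, Plxna2 held the most tissue-shared regions. It had 5, at its start and 6.32, 40.7, 43.3 and 58.0 kb from its nearest end, among 15 regions in all. In the same window 3 regions were called in all 3 lists, 3 in the monocyte-derived list alone and 2 in the resident and monocyte-derived lists. The start region was at the floor in both lists. The weakest, 75 bp wide, had 5.61e-06 in the converted and 8.27e-06 in the resident list. Itsn1, which encodes an endocytic scaffold, held 4 among 17, all inside the gene and 0.75 to 4.38 kb from a monocyte-derived peak.

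Irs1, the insulin receptor substrate gene, held 3 among 6. One lay just before its start (chr1:82291489-82291788; 1.03e-10 in the converted and 1.52e-06 in the resident list) and a pair near the other end (chr1:82235564-82235763 and chr1:82235839-82236038). Its 1 region with a monocyte-derived peak (chr1:82283064-82283488) was called in all 3 lists, at the floor in converted and resident and at 4.10e-06 in monocyte-derived cells. Psd3, an exchange factor gene, Cdk8, a Mediator kinase gene, Maml2, a Notch coactivator gene, Tmem135, and Pde4d, a cAMP phosphodiesterase gene, held 3 each. A further 35 genes held 2 each, with a median of 6 regions of any class in the window. At 3 of them, Efcab6, Slc10a6 and Zik1, the window held no other region, and the rule for ties put these first. The 2 regions at the Jun gene of AP-1 stood beside 3 with a monocyte-derived peak.

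**Figure D4:**
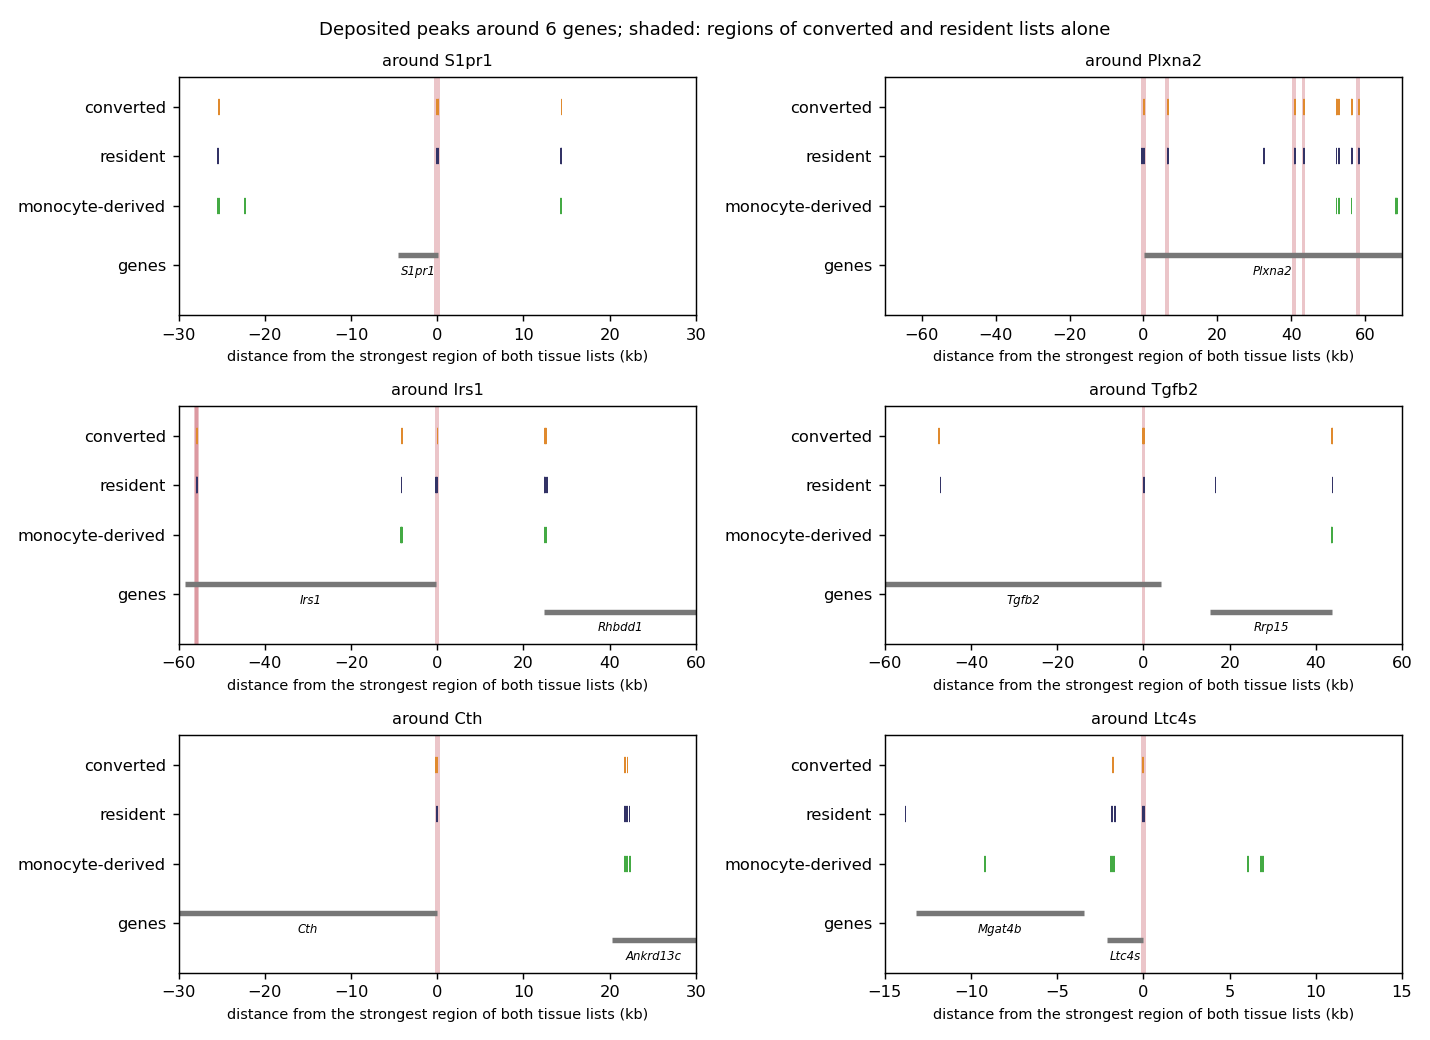
Deposited peaks of the converted, resident and monocyte-derived lists (rows from the top) and gene bodies (grey) around 6 genes, by distance in kb from the strongest tissue-shared region of each. Shading marks tissue-shared regions, and peaks narrower than 0.6% of the distance to the panel edge are widened to be visible. In Plxna2 stand 5 shaded stretches. By the rule, no shaded stretch can have a monocyte-derived peak under it.

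Large peritoneal macrophage genes held tissue-shared regions at 4 of 27 members, Tgfb2, Ltbp1, Garnl3 and Cd9 (14.8%, 5.92 to 32.5%), against 2.56% of all genes and 4.03% of genes with any region. The list and all others were chosen with earlier results of these data known, so nothing particular to a list is read from these counts. Tgfb2 encodes a transforming growth factor, and its region (chr1:186705514-186705613) had 4.70e-06 in the converted and 6.37e-06 in the resident list, with 43.4 kb to the nearest monocyte-derived peak. Its window had no monocyte-derived region. At Cd9, a tetraspanin gene, a monocyte-derived peak lay 0.25 kb from the region, and at Ltbp1, which encodes a binding protein of latent TGF-beta, 88.9 kb from it. Garnl3, a Rap GTPase-activating protein family gene, had a region 71.4 kb inside the gene at 5.61e-06 and 1.05e-05. The defining genes Gata6, Icam2, Timd4, Adgre1 and Rarb held none. At Gata6 the 2 converted and 1 resident regions did not overlap, and Icam2 and Timd4 had a resident region only.

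Monocyte and small peritoneal macrophage genes held none at any of 24 members, and this allows a share of up to 13.8% by the Wilson interval. MHC class II genes (14), retinoid genes (24), lipid handling genes (25), unfolded protein genes (20), dendritic cell markers (14) and housekeeping genes (18) also held none. Among these, Ccr2 had no region in any list, Cx3cr1 2 monocyte-derived regions alone, and Cd74 no converted, 3 resident and 6 monocyte-derived regions. At the background of 2.56% of all genes, a list of 25 genes or fewer would hold less than 1 such gene on average, so a count of 0 there is near the background. T and NK cell, mast cell, mesothelial and stromal, and eosinophil markers were likewise without any.

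Alternative activation genes held a single one, at 1 of 29. It lay in Ucp1, the gene of the mitochondrial uncoupling protein (chr8:83291964-83292138; 3.55e-06 in the converted and 8.43e-06 in the resident list). Arg1, the arginase gene, had 2 converted, 3 resident and 8 monocyte-derived regions and none that was tissue-shared, and Retnla none, 2 and 1. Macrophage core genes held regions at Emilin2 and at Mitf, a transcription factor gene, 2 of 22, and both have many monocyte-derived regions, 12 and 7. Inflammatory mediators held 1 of 22, 8.16 kb from the chemokine gene Cxcl3, though the gene nearest to that region was Pf4, a platelet chemokine gene, at 4.31 kb.

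In TGF-beta and BMP pathway genes 4 of 27 held a region (5.92 to 32.5%), beside the 2.56% of all genes and 4.03% of genes with a region. Beside Tgfb2 and Ltbp1 these were the signal transducer genes Smad1 and Smad3, where 4 and 6 monocyte-derived regions were also found. Semaphorin, plexin and neuropilin genes held regions at 4 of 31 (5.13 to 28.9%), with Plxna2 giving 5 of 8 and Plxna4, Sema3f and Sema5a 1 each. The Sema5a start (chr15:32244714-32244888) was at 4.70e-06 in the converted list and at the floor in the resident list, and no monocyte-derived peak lay within 642 kb. Integrin genes held 3 of 26 (4.00 to 29.0%), in Itga7, Itga8 and Itga9, which encode alpha subunits, and tissue identity factors 3 of 23 (4.54 to 32.1%), in Meis1, Mef2c and Smad3.

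Against the same 2.56% and 4.03%, insulin and IGF signalling genes held 3 of 20 (5.24 to 36.0%), with 3 regions at Irs1 and 1 each in Igf1r, the IGF-1 receptor gene, and Pik3r1, a PI3-kinase subunit gene. Amino acid and one-carbon enzyme genes held 3 of 18 (5.84 to 39.2%). Cth had the floor in both lists, Ass1, the argininosuccinate synthase gene, a region just before its start at 3.00e-06 in the converted and 1.18e-05 in the resident list, and Mthfd1l a region in the gene. The nearest monocyte-derived peak to the Ass1 region was 213 kb away. S1pr1 was the 1 of 10 sphingosine-1-phosphate genes, with no other region in its window, and Nfib, a nuclear factor I gene, the 1 of 10 in the list of GATA6 cofactors and retinoid-driven factors, each with an interval of 1.79 to 40.4%.

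Markers of other cells held a tissue-shared region at 2 genes. In Cr2, the complement receptor 2 gene of B cells, the region at the start was at 9.72e-06 in the converted list, at rank 97.0%, and at the floor in the resident list. The Cr2 window held 4 regions in all, 3 of them with a monocyte-derived peak. At S100a8, a calgranulin gene of neutrophils, the region had 9.72e-06 in the converted and 3.39e-06 in the resident list, and no other region lay in the window. Neither call was strong in the converted list. Over all 26 lists, 30 of 468 genes found (6.41%) held a tissue-shared region, beside 2.56% of all 21631 genes and 4.03% of the 13730 with a region, and 10 of the 30 had no monocyte-derived region in the window. Gene length differs between lists and was not adjusted for.

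**Figure D5:**
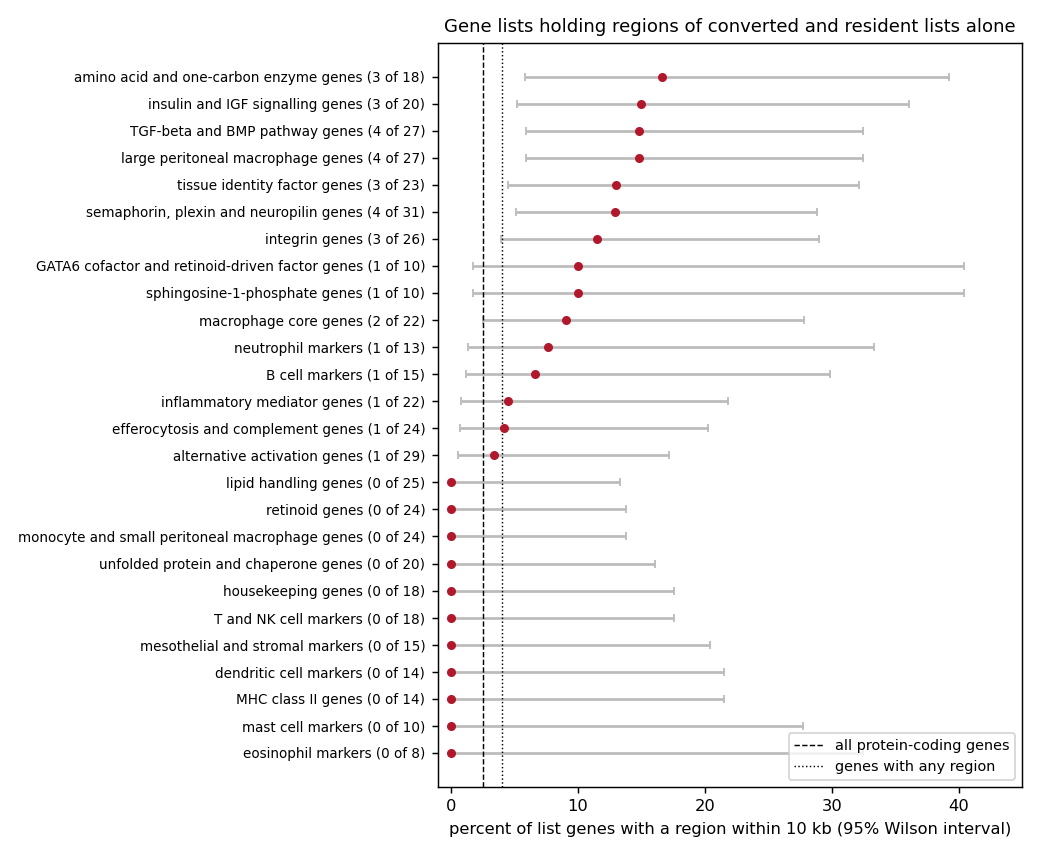
Share of the genes in each of 26 lists with a tissue-shared region in the gene or within 10 kb (percent, points with 95% Wilson intervals; counts in the labels). Dashed and dotted lines are the 2.56% of all protein-coding genes and the 4.03% of genes with any region: 11 lists stand at 0, and the highest point is 3 of 18 genes.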

How the data were processed

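Nuclei of sorted cells were treated with Tn5 and the DNA was amplified and sequenced on a HiSeq 2000, per the labels' protocols. The submitters' processing notes name Bowtie2 2.2.9 and the build mm10, that is GRCm38. How peaks were called, whether reads were shifted for the transposase, how duplicates were handled and how samples were merged: not given in the sources used here. Each deposited list holds the p-value of every peak as the authors deposited it, with a floor of 1e-12 and no counts.

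The 715 members were found by merging peaks in Python 3.11.15 (numpy 2.4.6, pandas 2.3.3; plots with matplotlib 3.10.9). Gene positions and promoter windows came from RefSeq tables of GRCm38.p6, which matches the lists' build. Promoter entries were found for 79.9% of protein-coding genes. No genome was used, so the motif search planned over all regions was replaced by one over promoter windows, chosen after seeing the data. Exon positions were not used. RNA-seq was not analysed here.

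The members, gene lists and named genes were chosen with earlier results of these data known. Named are the 20 regions of smallest worse rank, the 10 genes with most members, list genes with a member (at most 5 a list) and 13 fixed genes. Of 471 list genes 468 were found. The gene of 1 list with a member is not reported here. With 1 list per group there is no test between groups. On simulated data all 7000 of 7000 regions got their class back. Alternatives were other p-values, list lengths, overlaps, windows and, added later, dense windows.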

Additional observations from a re-analysis of the deposited data

How the results depend on the processing

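Across 52 alternative values, 30 stayed within the interval of the value reported or, for counts, within 1.5 times, and 22 moved. Which regions qualify depended most on the p-value and list length. With p at most 1e-10 in every list there were 160 regions, 13 of them among the 715, with 49.4% near a gene end, 71.2% inside genes, 176 genes and a median gap of 76.6 kb. By construction, a weak monocyte-derived peak then no longer removes a region and is not counted in the gap. At equal list lengths there were 2013 regions, holding 434 of the 715, with 41.4% near a gene end, 67.6% inside genes and 1951 genes. In the 50% of smallest p-values there were 718, holding 124 of the 715, with 43.0%, 67.3% and 6.27% with a neighbour within 10 kb. In all 3 settings, as in the other list settings, the share near a gene end stayed below that of regions of all 3 lists, by 23.6 to 36.9 points. Whether it stayed below that of the other classes is not given.

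At p at most 1e-5 the neighbour share was 6.92%, and when 50% of the shorter peak had to overlap 12.3%. Joining peaks within 200 bp gave 19.9% near a gene end, 5.19% with a neighbour and a median gap of 26.1 kb. Members at least 1 kb from a monocyte-derived peak had 18.9% near a gene end and a median gap of 32.2 kb. Within 2.5 kb of a gene end lay 28.2%, within 50 kb of a neighbour 15.5%, and 50 kb windows held 1062 genes. No paired analysis was possible because the samples of a group were deposited as 1 merged list, which also kept single replicates from being left out. The motif search over all regions was not run. Depth is unknown and limits every absence of a call.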
